A study of Rattus norvegicus with 138 samples.

Results

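The 9 genes described here encode the rat machinery for presenting peptides on major histocompatibility complex (MHC) class II molecules. They are RT1-Ba (ENSRNOG00000000451) and RT1-Bb (ENSRNOG00000032708), RT1-Da (ENSRNOG00000032844) and RT1-Db1 (ENSRNOG00000033215), RT1-DMa (ENSRNOG00000047864) and RT1-DMb (ENSRNOG00000049491), RT1-DOb (ENSRNOG00000000454), Cd74 (ENSRNOG00000018735) and Ciita (ENSRNOG00000002659). They were taken by symbol and are 9 of the 32883 genes listed. RNA-seq covered the solitary tract nucleus (NTS), the caudal ventrolateral medulla (CVLM) and the rostral ventrolateral medulla (RVLM), brainstem regions of the circuit that sets sympathetic outflow. Each region was taken as bilateral micropunches from the same 46 female rats, giving 46 libraries a region with total counts from 5904581 to 17889417. The spontaneously hypertensive rat (SHR, SHR/NHsd) is an inbred strain whose blood pressure rises during early adulthood, and the Wistar-Kyoto rat (WKY, WKY/NHsd) is the normotensive strain it is usually set against. At 8 and 10 wk of age there were 5 and 4 WKY rats and 5 SHRs each time, and at 12, 16 and 24 wk 3 WKY rats and 6 SHRs each time, so each region held 18 WKY rats and 28 SHRs.

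Class II molecules are pairs of an alpha and a beta chain that carry peptides from the endosome to the cell surface, where CD4 T cells read them. The rat has a RT1-B molecule, the counterpart of human DQ, built from RT1-Ba and RT1-Bb, and a RT1-D molecule, the counterpart of human DR, built from RT1-Da and RT1-Db1. Cd74, the invariant chain, fills the peptide groove while the molecule is made, RT1-DM (RT1-DMa with RT1-DMb) then removes its remnant and loads peptide, and RT1-DO, of which RT1-DOb is the beta chain, restrains RT1-DM. Ciita is the coactivator that switches the whole set on in dendritic cells, B cells and activated macrophages, and in the healthy brain class II is found mainly on macrophages at the borders and on a minority of microglia. A punch holds many cell types, and fewer cells of a type cannot be told apart from less RNA per cell in any comparison below.

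The promoters of these genes share the X and Y boxes at which the Ciita-dependent complex assembles, and they are shown here because the members are known for this shared element. RefSeq promoter windows on the GRCr8 build, of 1 fixed length around each gene's start, were found for 7 of the 9 members, and RT1-DMb and Ciita were not matched. The Y core ATTGG, read on both strands, was in 7 of 7 member windows and in 37.5% of all 33469 windows. The X core AGNNACAG, also on both strands, was in 4 of 7 member windows against 26% of all. Of these, RT1-Da and RT1-Bb held it at the X-like core printed below, and RT1-Db1 and RT1-Ba only outside that core. A looser X core, NGNNACNG, which contains the stricter one and was written after the sequences had been read, stood 18 to 40 bases ahead of ATTGG on the same strand in 6 of 7 member windows, all but Cd74, and in 3.99% of all windows. In the 6 stretches below, written 5′ to 3′ on the strand of the gene, capitals mark the X-like core and then the Y core, which lay 31 to 34 bases apart from start to start.
RT1-Da, chr20:4515322-4515380, plus strand: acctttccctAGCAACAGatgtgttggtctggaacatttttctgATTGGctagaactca
RT1-Db1, chr20:4560228-4560285, minus strand: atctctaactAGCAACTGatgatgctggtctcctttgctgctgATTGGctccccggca
RT1-Ba, chr20:4576970-4577028, plus strand: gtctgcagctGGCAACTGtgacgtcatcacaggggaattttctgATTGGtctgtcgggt
RT1-Bb, chr20:4604165-4604222, minus strand: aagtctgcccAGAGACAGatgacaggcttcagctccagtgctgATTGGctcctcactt
RT1-DOb, chr20:4627592-4627647, minus strand: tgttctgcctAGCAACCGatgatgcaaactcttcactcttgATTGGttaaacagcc
RT1-DMa, chr20:4712385-4712443, minus strand: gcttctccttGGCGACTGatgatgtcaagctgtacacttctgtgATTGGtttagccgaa
The 6 genes that carry this shared pair did not share a strain pattern: by the tests given below RT1-Db1 was higher in SHRs in all 3 regions, RT1-Ba and RT1-Bb were lower, RT1-DOb was higher in the CVLM, RT1-DMa with its listed copy was lower, and RT1-Da passed no strain test.

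Levels are given in CPM, the reads of a gene scaled to a fixed total of reads in each library, and each value is compared only with the same gene in other rats. Strain differences are log2 fold changes of SHRs against WKY rats with their standard error, from edgeR's quasi-likelihood test on all genes that passed a filter on low expression, with Benjamini-Hochberg adjustment over those genes and a threshold of 0.05. These p-values measure the spread between rats of 1 strain. Reads of both strains were aligned to the same rat reference, and the study calls the RT1 family highly polymorphic. For the RT1 genes below, a strain difference in alignment cannot be told apart from a difference in RNA. The titles place 2 CVLM libraries, 1 of each strain, at 8 wk and their age labels at 10 wk. They were kept at 8 wk, and without them no call over ages changed. Library names also end in 1 or 2, a number of unstated meaning that 14 libraries of each region carry as 2, among them all of the 10 wk rats and 3 WKY rats of 8 wk. Of the 9 members, 5, 6 and 5 passed the filter in the NTS, CVLM and RVLM. RT1-Ba, RT1-Bb and Ciita did not pass in any region, and RT1-DOb passed only in the CVLM. Where a gene did not pass, the fits without a filter are used. In the single-age comparisons, taken from the youngest age to the oldest, 1, 1, 0, 1 and 1 of the 5 members tested passed in the NTS, where 5.79%, 4.44%, 3.10%, 1.73% and 2.46% of all genes did. In the CVLM 2, 2, 1, 2 and 1 of 6 passed, against 7.64%, 3.18%, 2.62%, 2.27% and 7.13% of all genes, and in the RVLM 1 of 5 passed at every age, against 9.78%, 2.30%, 1.70%, 1.65% and 2.24%. With the 5 ages averaged with equal weight ("over ages"), 1 of 5, 3 of 6 and 1 of 5 members passed in the NTS, CVLM and RVLM, against 11.2%, 12.3% and 10.8% of all genes. The median member difference over ages was −0.08, −0.19 and 0.27 in the 3 regions, where the median of all genes was 0.01, −0.003 and 0.01. The counts leave out the members below the filter, and they take RT1-DMa and RT1-DMb as listed, each without the copy that shared its reads. Those of the CVLM include RT1-DOb, which passed the filter there through the SHRs. RT1-Db1, counted in all 3 regions, also had its highest values in SHRs, and the filter takes the maximum of a gene. Whether WKY rats alone would have carried RT1-Db1 past the filter was not tested.

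RT1-Db1, the beta chain of RT1-D, was higher in SHRs in every region. In the RVLM it ranged from 1.20 to 4.53 CPM (median 2.34) in SHRs and from 0 to 1.25 (median 0.231) in WKY rats, and 27 of 28 SHRs lay above every WKY rat. The strains did not overlap at any of the 5 ages in the RVLM. In the CVLM the ranges were 0 to 4.32 (median 1.86) in SHRs and 0 to 1.28 (median 0.191) in WKY rats, and in the NTS 0.580 to 2.89 (median 1.57) and 0.225 to 1.39 (median 0.462). In each of these 2 regions 21 of 28 SHRs lay above every WKY rat, and the strains did not overlap at 3 ages in the CVLM and at 2 in the NTS. The difference over ages was 3.21 ± 0.28 in the RVLM (SE, adjusted p = 2.3e-12, edgeR), 2.48 ± 0.28 in the CVLM (adjusted p = 2.3e-09) and 1.61 ± 0.19 in the NTS (adjusted p = 5.9e-09). By age it passed at all 5 ages in the RVLM (2.15 to 4.67), at 8, 10 and 16 wk in the CVLM and at 8, 16 and 24 wk in the NTS. In the RVLM the calls at 12 and 16 wk lay near the threshold (adjusted p = 0.045 and 0.032, edgeR). With each age fitted alone they did not pass (adjusted p = 0.064 and 0.15), nor did 10 wk in the CVLM (0.11) and 8 and 24 wk in the NTS (0.053 and 0.086), and with no filter 12 wk in the RVLM did not (0.059). At 12 wk it was 0.57 ± 0.39 in the NTS (adjusted p = 0.65, edgeR) and 1.76 ± 0.60 in the CVLM (adjusted p = 0.13). The strain difference itself was smaller in the NTS than in the RVLM by 1.71 ± 0.37 on the log2 scale (adjusted p = 0.0018, edgeR over all 3 regions), a test that 2.07% of all genes passed. Its other contrasts between regions did not pass (NTS against CVLM −1.0, adjusted p = 0.42; CVLM against RVLM −0.71, adjusted p = 0.80), and neither test passed for more than a few genes (0.274% and 0.343%).

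RT1-Da, the alpha chain that pairs with RT1-Db1, did not follow it. In the NTS it ranged from 0.604 to 4.57 CPM (median 1.70) in WKY rats and from 0.736 to 7.84 (median 1.70) in SHRs, and the strains overlapped at every age in every region. Its difference over ages was −0.03, −0.29 and 0.28 in the NTS, CVLM and RVLM (adjusted p = 0.97, 0.55 and 0.66, edgeR). The strain test thus called the beta chain of RT1-D and not the alpha chain, and the contrast between the chains was not itself tested.

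**Figure D1:**
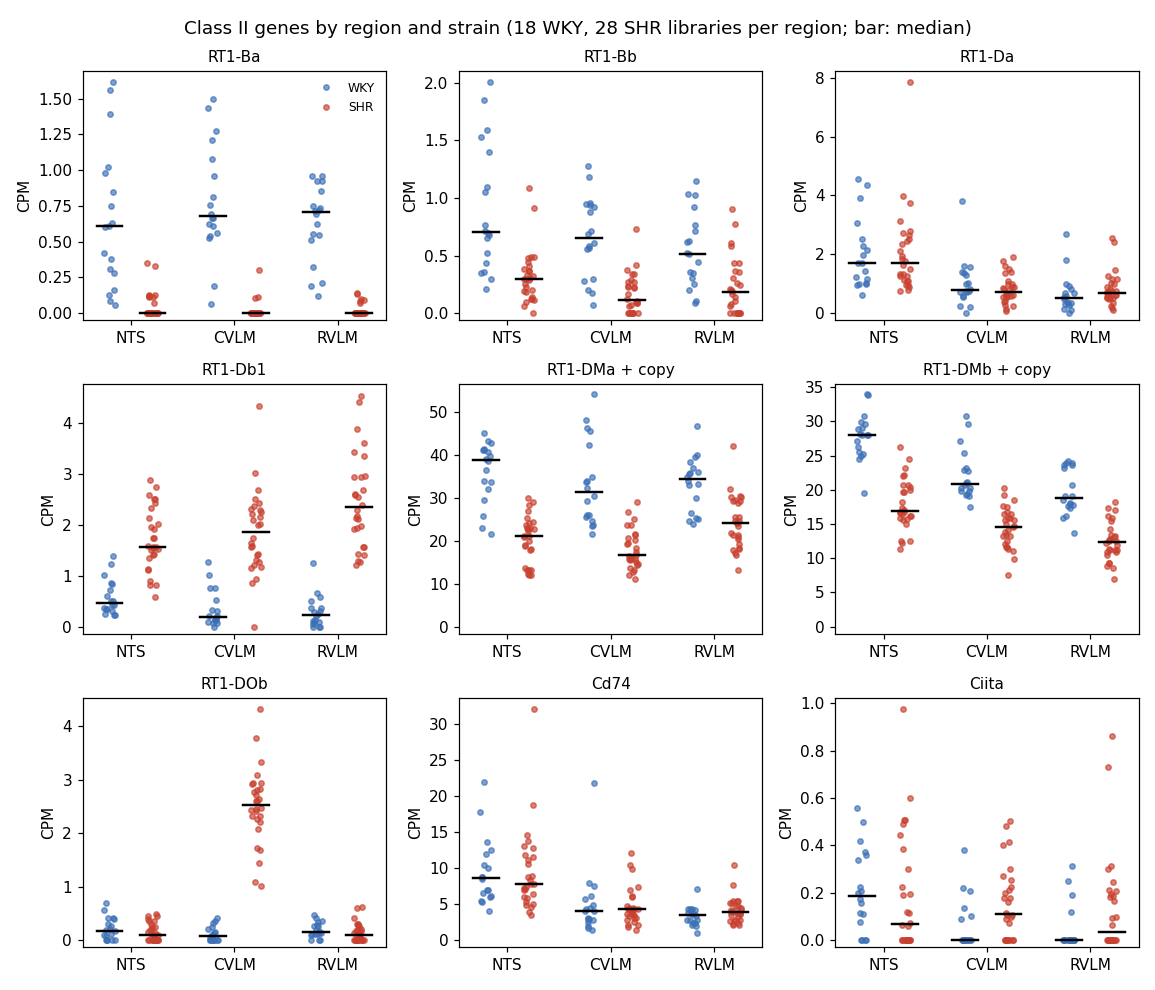
Class II genes in WKY rats (n = 18) and SHRs (n = 28) in each region, in CPM, with each point 1 rat and the bar the median, and with RT1-DMa and RT1-DMb summed with their listed copies. RT1-Ba sits at or near 0 in SHRs and RT1-Db1 near the floor in WKY rats, while Cd74 and RT1-Da overlap between the strains.

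RT1-Ba, the alpha chain of RT1-B, was close to absent from SHR libraries. WKY rats had 0.0562 to 1.61 CPM in the NTS (median 0.606), 0.0651 to 1.5 in the CVLM (median 0.679) and 0.121 to 0.959 in the RVLM (median 0.705), and every WKY library held at least 1 read. In SHRs 19, 25 and 22 of 28 libraries were at 0 in the NTS, CVLM and RVLM, and the highest values were 0.349, 0.302 and 0.144 CPM. Counted over the strain, 121, 148 and 119 reads were found in WKY rats and 15, 5 and 7 in SHRs. Relative to all reads WKY rats were thus 11.5 times higher in the NTS (95% interval 6.71 to 21.2), 42.7 times in the CVLM (17.9 to 134) and 25.2 times in the RVLM (11.8 to 64.0), where the intervals cover counting error only. The strains did not overlap at any of the 5 ages in the CVLM and RVLM and at 4 ages in the NTS. Without the filter the difference over ages was −3.53 ± 0.43, −5.01 ± 0.43 and −4.46 ± 0.39 in the 3 regions (adjusted p = 3.5e-08, 6.8e-12 and 5.5e-12, edgeR), in fits where 6.89%, 7.53% and 6.89% of all genes passed. A WKY library held 1 to 19 reads, so the size of these folds is imprecise.

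RT1-Bb, the beta chain of RT1-B, was also lower in SHRs, by less. In the CVLM its range was 0.0738 to 1.28 CPM in WKY rats (median 0.651) and 0 to 0.728 in SHRs (median 0.114), so the strains overlapped. The medians were 0.704 and 0.297 in the NTS and 0.517 and 0.182 in the RVLM, for WKY rats and SHRs. The strain totals gave WKY levels 2.87 times higher in the NTS (95% interval 2.21 to 3.75), 3.73 times in the CVLM (2.65 to 5.32) and 2.32 times in the RVLM (1.71 to 3.17). These intervals cover counting error only and leave out the spread between rats. The difference over ages was −1.51 ± 0.29 (adjusted p = 0.00023, edgeR), −2.14 ± 0.35 (adjusted p = 1.2e-05) and −1.30 ± 0.41 (adjusted p = 0.047). The RVLM value lies at the threshold: leaving out 1 rat at a time gave adjusted p-values from 0.015 to 0.17, and 29 of 46 such fits did not pass. These fits kept the negative binomial dispersion, a part of the estimate of the spread, from all libraries.

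RT1-DMa and RT1-DMb each shared reads with a copy listed under another symbol, LOC108348072 for RT1-DMa and LOC108348139 for RT1-DMb. RT1-DMa was not a whole number in 134 libraries of all regions and RT1-DMb in 72, whereas the sum of each gene and its copy was whole, within 0.005, in every library. The share given to the named gene ran from 0% to 100% between libraries for both genes, and RT1-DMb was left with fewer than 2 reads in 37 libraries. The spread between rats of 1 strain and age was far wider for the gene alone than for the sum. It is given as the standard deviation pooled within groups, in percent of the mean of all libraries of the region. For RT1-DMb this was 80.8%, 72.0% and 93.6% in the NTS, CVLM and RVLM for the gene alone and 13%, 15% and 15.6% for the sum. For RT1-DMa it fell from 47.9%, 53.2% and 47.6% to 18%, 21.9% and 17.1%. The sums are used below as the RT1-DMa pair and the RT1-DMb pair, since the division between rows varied from rat to rat. Whether a pair is 1 gene listed at 2 places or 2 genes cannot be told apart from these counts.

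**Figure D2:**
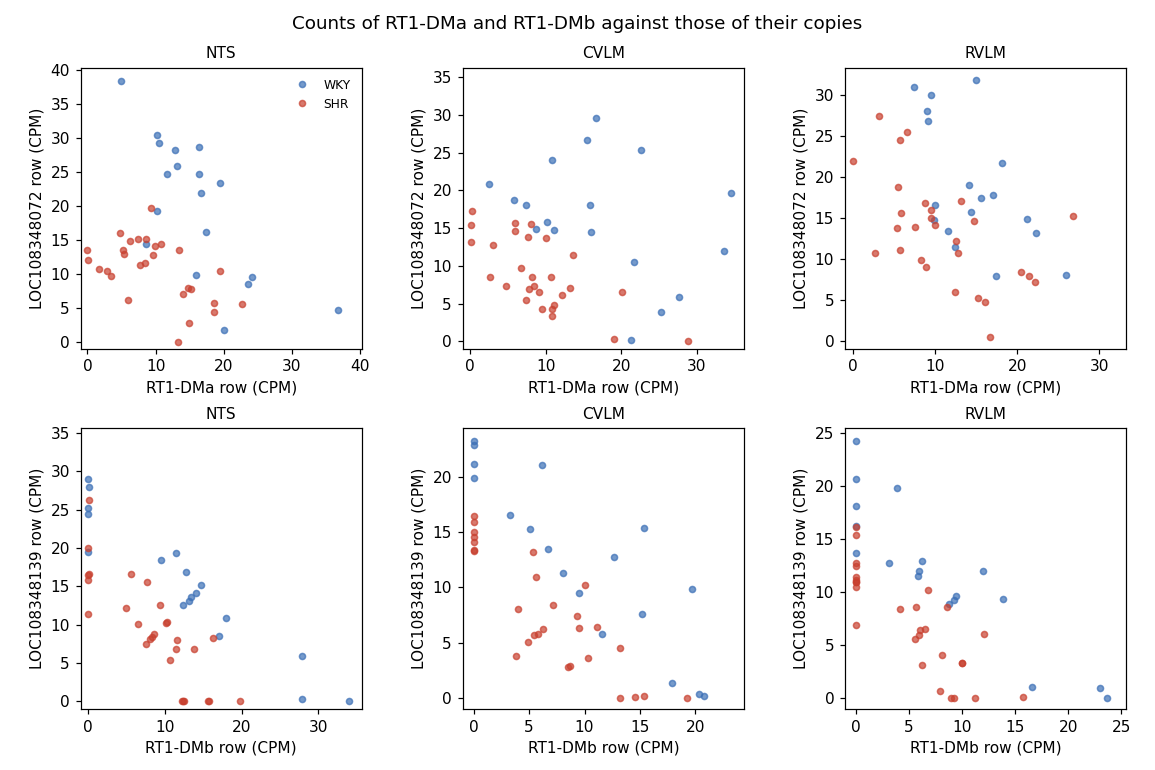
Level of each listed copy (vertical axis, CPM) against that of RT1-DMa (top row) or RT1-DMb (bottom row) on the horizontal axis, by region, with each point 1 rat. Points run from one axis toward the other, so a rat with little in the named row had more in the copy, and WKY rats lie mostly farther from the origin than SHRs.

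The RT1-DM genes, which load peptide, were lower in SHRs in all 3 regions once their reads were put together. The RT1-DMa pair ranged from 21.7 to 45.0 CPM in WKY rats (median 38.8) and from 12.0 to 29.8 in SHRs (median 21.1) in the NTS, with medians of 31.4 and 16.6 in the CVLM and 34.4 and 24.1 in the RVLM. The RT1-DMb pair ranged from 19.5 to 34.1 CPM in WKY rats (median 28) and from 11.4 to 26.3 in SHRs (median 16.9) in the NTS, with medians of 20.9 and 14.6 in the CVLM and 18.8 and 12.3 in the RVLM. For the RT1-DMb pair 17, 23 and 21 of 28 SHRs lay below every WKY rat in the NTS, CVLM and RVLM, and for the RT1-DMa pair 15, 22 and 13 did. The difference over ages was −0.88 ± 0.09 (adjusted p = 2.2e-10, edgeR), −0.93 ± 0.09 (adjusted p = 4.5e-11) and −0.49 ± 0.08 (adjusted p = 2.0e-05) for the RT1-DMa pair. For the RT1-DMb pair it was −0.67 ± 0.07 (adjusted p = 1.6e-10, edgeR), −0.65 ± 0.07 (adjusted p = 5.1e-09) and −0.70 ± 0.08 (adjusted p = 2.7e-09). In these fits with the copies summed, 11.2%, 12.3% and 10.8% of all genes passed. Both pairs were lower in SHRs at all 5 ages in all 3 regions, from −1.17 to −0.26, and passed at 4 ages each, apart from the RT1-DMa pair in the RVLM, which passed at 1. The share of all genes that passed at a single age in these fits is not given here.

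Taken as deposited, the named genes alone gave another picture. RT1-DMb showed −0.50, −0.50 and −0.42 over ages in the NTS, CVLM and RVLM (adjusted p = 0.72, 0.66 and 0.74, edgeR). RT1-DMa showed −0.78 in the NTS (adjusted p = 0.050, which rounds from above the threshold), −0.92 in the CVLM (adjusted p = 0.041, lost in 20 of the 46 fits that leave out 1 rat) and −0.42 in the RVLM (adjusted p = 0.37). The only single age at which RT1-DMa alone passed was 10 wk in the NTS, at −2.27 ± 0.61 (adjusted p = 0.021, edgeR), where the pair fell by less, −1.11 ± 0.20.

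The strain difference of the RT1-DMa pair was itself larger in the NTS and CVLM than in the RVLM. The NTS difference stood at −0.37 ± 0.09 against that of the RVLM (adjusted p = 0.0049, edgeR), and the CVLM difference at −0.40 ± 0.09 (adjusted p = 0.0060). In these tests 2.10% and 0.351% of all genes passed, and 0.275% did for NTS against CVLM, where neither pair was among them.

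**Figure D3:**
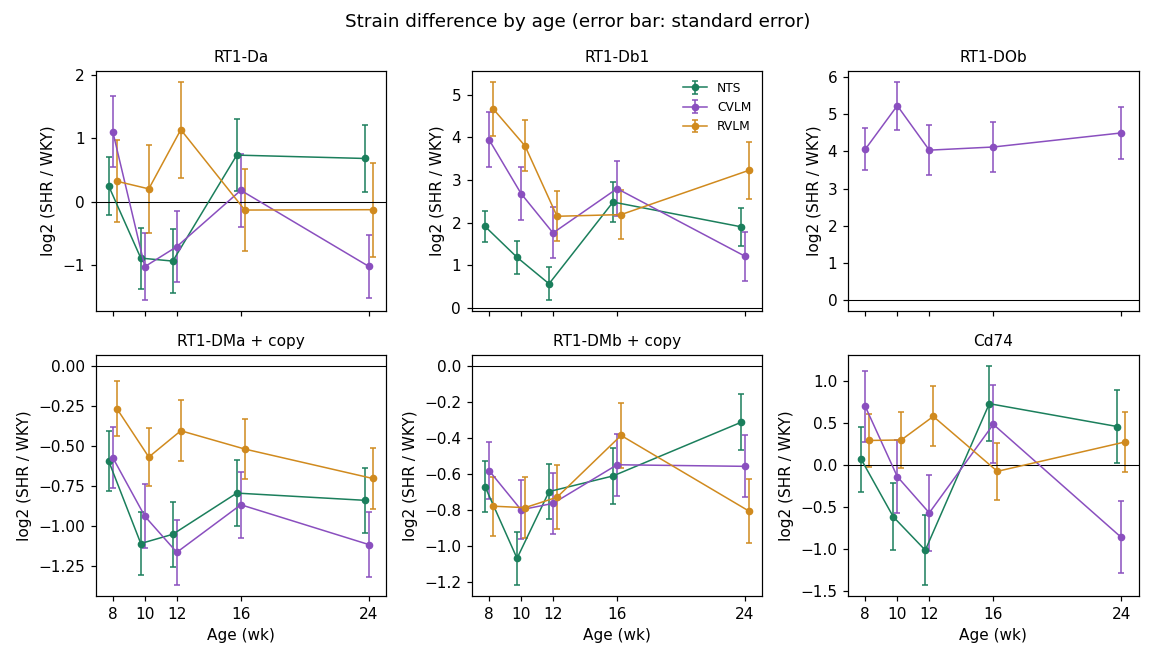
Log2 fold change of SHRs against WKY rats at each age (wk) in each region, with standard errors, for class II genes and the summed RT1-DM pairs, with RT1-DOb in the CVLM alone. RT1-Db1 lies above 0 and both RT1-DM pairs below 0 at every age, and Cd74 and RT1-Da move about 0.

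RT1-DOb, the beta chain of the RT1-DM inhibitor, differed between strains in the CVLM and not detectably elsewhere. In the CVLM the SHRs had 1.01 to 4.32 CPM (median 2.53), from 9 to 45 reads a library, and the WKY rats 0 to 0.410 CPM (median 0.0780), from 0 to 4 reads. All 28 SHRs lay above all 18 WKY rats, and the same held within each of the 5 ages. The summed counts were 752 in SHRs and 21 in WKY rats, so that relative to all reads the SHRs were 24.8 times higher (95% interval 16.1 to 40.3, counting error only). In the fit with the filter, which RT1-DOb passed through the SHRs, the difference over ages was 4.39 ± 0.29 (adjusted p = 6.1e-16, edgeR). By age it ran there from 4.03 to 5.23 with adjusted p-values from 8.3e-08 to 6.4e-05 (edgeR). Without the filter it ran by age from 4.07 to 5.23, with adjusted p-values from 4.6e-08 to 5.1e-05 (edgeR). In the same rats the NTS gave a median of 0.105 CPM in SHRs and 0.178 in WKY rats, and the RVLM 0.101 and 0.153. The fits without a filter gave −0.43 in the NTS (adjusted p = 0.94, edgeR) and −0.55 in the RVLM (adjusted p = 0.72).

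The difference of RT1-DOb between regions was tested in the fit of all 3 regions without a filter, since the gene passed the filter in the CVLM alone, through the SHRs. The strain difference of the NTS stood at −4.92 ± 0.61 against that of the CVLM (adjusted p = 7.8e-09, edgeR), and that of the CVLM at 5.01 ± 0.62 against that of the RVLM (adjusted p = 1.1e-08). NTS against RVLM gave 0.09 ± 0.62 (adjusted p = 1.0). In these 3 tests 0.177%, 0.215% and 0.948% of all genes passed. B cells are the cells best known for RT1-DO, and their defining marker Ms4a1 had a median of 0 in every strain and region. The 4 B cell markers listed summed to medians of 0.108 to 0.190 CPM, with a highest value of 1.14, and none passed the filter. RT1-DOa, the alpha chain that RT1-DOb needs, had 117 reads in all libraries together and a median of 0 in both strains in the CVLM. Each region was deposited as its own table, so the CVLM punch and the CVLM table cannot be told apart.

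**Figure D4:**
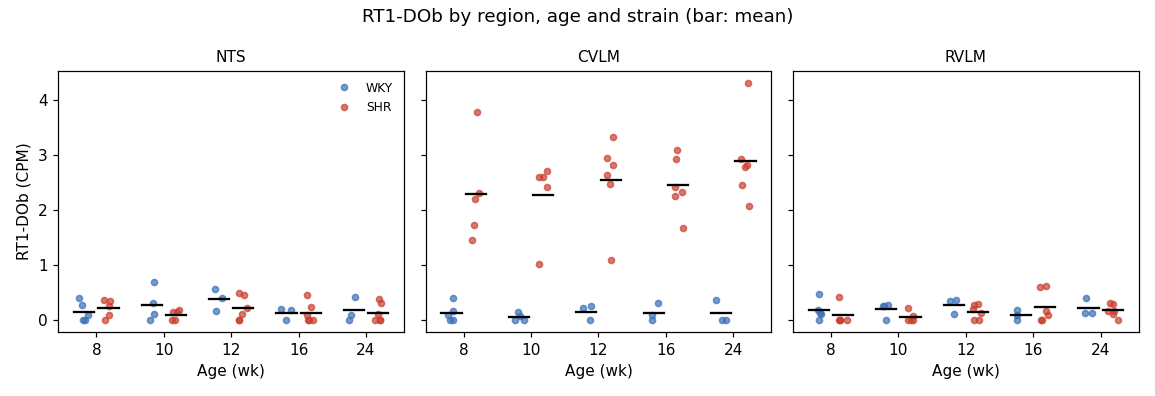
RT1-DOb in CPM by region, strain and age (wk), with each point 1 rat and the bar the mean. The 28 SHRs of the CVLM lie from 1.01 to 4.32 CPM, above all WKY rats, while the NTS and RVLM stay below 0.7 CPM in both strains.

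Cd74, the invariant chain, and RT1-Da followed the region rather than the strain. Cd74 ranged from 3.48 to 32.1 CPM in the NTS (median 8.06), from 1.38 to 21.8 in the CVLM (median 4.15), and from 1.03 to 10.4 in the RVLM (median 3.69). RT1-Da had medians of 1.70, 0.775 and 0.637 CPM in the 3 regions. Within rats, the NTS held more Cd74 than the CVLM in 43 of 46 and more than the RVLM in 42, and more RT1-Da in 42 and 43. The NTS exceeded the CVLM by 0.93 ± 0.13 for Cd74 (adjusted p = 9.2e-10, edgeR) and 1.03 ± 0.18 for RT1-Da (adjusted p = 2.8e-07). It exceeded the RVLM by 1.14 ± 0.13 (adjusted p = 5.8e-13) and 1.32 ± 0.18 (adjusted p = 4.4e-10). Most genes differed between regions, with 65.3%, 73.2% and 54.7% passing for NTS against CVLM, NTS against RVLM and CVLM against RVLM, and 2, 2 and 0 of the 5 members tested are shares below that background.

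Marker lists of several cell types also differed between regions, in both directions. All 14 microglial markers were higher in the NTS in both comparisons, with medians of 0.36 against the CVLM and 0.31 against the RVLM on the log2 scale, and their summed level had medians of 555, 387 and 401 CPM in the NTS, CVLM and RVLM. Dnah12, the only ependymal marker tested, was higher in the NTS by 3.04 and 3.53, and 2 of 3 astrocytic markers were higher in each comparison (medians 0.45 and 0.44). Of 3 border macrophage markers none was higher in the NTS, and 1 was lower than in the CVLM and 2 than in the RVLM (medians −0.12 and −0.27), while all 3 oligodendrocyte markers were lower (medians −0.73 and −0.54). The part of these lists in the class II difference was not tested. RT1-Db1 passed no comparison of levels between regions (0.27, 0.17 and −0.10, adjusted p = 0.18, 0.39 and 0.71, edgeR). With the copies summed, 65.4%, 73.2% and 54.7% of all genes passed, the RT1-DMa pair was lower in the NTS and the CVLM than in the RVLM (−0.24, adjusted p = 8.9e-07, and −0.26, adjusted p = 2.4e-07), and the RT1-DMb pair ran the other way, highest in the NTS (0.19 against the CVLM, adjusted p = 0.00039, and 0.36 against the RVLM, adjusted p = 2.2e-10).

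Between strains Cd74 passed no test over ages, at −0.08, −0.08 and 0.27 in the NTS, CVLM and RVLM (adjusted p = 0.90, 0.89 and 0.32, edgeR). It passed at no single age. Its lowest adjusted p at any age and region was 0.22, at 24 wk in the CVLM (−0.86 ± 0.43), and the 12 wk NTS groups, which did not overlap, gave −1.02 ± 0.41 (adjusted p = 0.25). In that group 2 of the 3 WKY rats, with 17.8 and 12.5 CPM of Cd74, also held 4569 and 831 CPM of choroid plexus markers, whose part was not tested. Rats that were high in Cd74 for their strain and age were also high in RT1-Da: the correlation of the residual log2 values was 0.70, 0.56 and 0.33 in the NTS, CVLM and RVLM over 46 rats, and RT1-Da ranked first among all genes for likeness to Cd74. The points share their library depth and cell makeup, so this is a description.

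**Figure D5:**
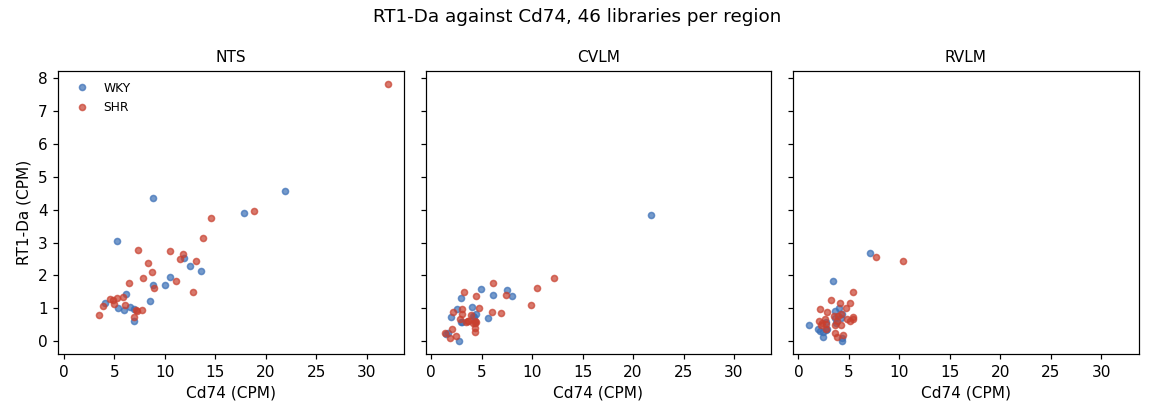
RT1-Da (vertical axis, CPM) against Cd74 (horizontal axis, CPM) on linear axes, by region, with each point 1 library coloured by strain. The NTS holds the library with 32.1 CPM of Cd74 and 7.84 of RT1-Da, 1 CVLM library stands apart at 21.8 and 3.83, and the strains overlap in every region.

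With age, 3 of the 6 members tested rose in WKY rats of the CVLM, with RT1-DMa and RT1-DMb taken as listed. None passed in the other 5 series of strain and region. In WKY rats of the CVLM, Cd74 was 2.75, 4.10, 1.48, 1.69 and 2.95 CPM at 8 wk and 21.8, 7.51 and 4.90 at 24 wk. RT1-Da went from 0, 1.02, 0.221, 0.242 and 0.570 to 3.83, 1.57 and 1.59, and RT1-Db1 was 0, 0.205, 0.0738, 0.161 and 0.0951 and then 1.28, 1.01 and 0.122. For Cd74 and RT1-Da all 24 wk rats lay above all 8 wk rats, with 1 rat at 24 wk far above the other two, and for RT1-Db1 1 rat at 24 wk fell among those at 8 wk. The increases were 2.15 ± 0.46 for Cd74 (adjusted p = 0.0031, edgeR), 2.51 ± 0.57 for RT1-Da (adjusted p = 0.0041) and 2.80 ± 0.78 for RT1-Db1 (adjusted p = 0.015), in a comparison that 13.7% of all genes passed. RT1-DMa and RT1-DMb as listed and RT1-DOb stood at 0.55, 0.20 and −0.09 (adjusted p = 0.64, 0.93 and 0.97, edgeR). With the copies summed the RT1-DMa pair rose by 0.63 ± 0.21 and passed (adjusted p = 0.042, edgeR). The RT1-DMb pair did not pass (0.25 ± 0.18, adjusted p = 0.34, edgeR). Cd74, RT1-Da and RT1-Db1 did not pass without the first WKY rat of 24 wk (1.26, 1.94 and 2.30, adjusted p = 0.11, 0.064 and 0.12, edgeR). Without the second, RT1-Db1 did not (adjusted p = 0.053, edgeR). With a term for the library number Cd74 passed (adjusted p = 0.040) and RT1-Da and RT1-Db1 did not (adjusted p = 0.059 and 0.097), and without the number 2 libraries of 8, 12 and 24 wk the values were 1.74, 2.19 and 2.87 and none passed (adjusted p = 0.23, 0.21 and 0.26, edgeR).

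Microglial markers rose beside them in the same comparison, with 6 of 14 passing, all higher at 24 wk (median 0.49), and a summed level of 310 to 447 CPM at 8 wk and 451 to 522 at 24 wk. The 3 oligodendrocyte markers were lower at 24 wk, and neither list's part in the change of the 3 genes was tested. No member passed between 8 and 24 wk in the other 5 series, where 0.464% (NTS) and 0.179% (RVLM) of all genes passed in WKY rats and 0.232%, 0.649% and 0.358% in SHRs of the NTS, CVLM and RVLM. In those 5, with RT1-DMa and RT1-DMb as listed, the lowest adjusted p of a member was 0.39, and no member had an unadjusted p under 0.05 (edgeR). With the copies summed, the RT1-DMb pair had an unadjusted p of 0.022 in SHRs of the NTS (0.33 ± 0.14, adjusted p = 0.56, edgeR). Whether the strain difference changed over the 5 ages passed for no member, with lowest adjusted p-values of 0.39, 0.39 and 0.84 (edgeR) and 3, 2 and 1 members at an unadjusted p under 0.05. That test passed for 0.0145%, 0.0224% and 0.00746% of all genes.

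Ciita, the coactivator, was at the limit of detection. It had 192 reads in all libraries together, with medians of 0.186, 0 and 0 CPM in WKY rats and 0.0672, 0.109 and 0.0326 in SHRs of the NTS, CVLM and RVLM. Without the filter its differences over ages were −0.31, 1.41 and 2.0 (adjusted p = 1.0, 0.19 and 0.077, edgeR), so that no strain difference was detectable at this depth. In the CVLM this rests on 1 library, since without the second WKY rat of 12 wk the value was 2.14 (adjusted p = 0.042, edgeR). That fit kept the negative binomial dispersion of all libraries. The DNA-binding side of the complex was well covered: of Rfx5, Rfxap, Rfxank, Nfya, Nfyb, Nfyc and Creb1, which hold Ciita at the X and Y boxes, 7 of 7 were tested and only Nfyb passed, in the CVLM, at −0.17 ± 0.05 (adjusted p = 0.014). Interferon gamma, the main inducer of Ciita, had no read in any library, and of its receptors and downstream genes 0 of 7 passed in the NTS and 0 of 6 in the CVLM and in the RVLM, where the members of the list that were tested had medians between −0.03 and 0.03.

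Genes that lie inside the class II region moved in both directions between strains. Psmb8, an immunoproteasome subunit, had medians of 15 CPM in SHRs and 6.59 in WKY rats in the NTS and was higher in SHRs by 1.18 ± 0.08, 0.99 ± 0.08 and 1.03 ± 0.09 in the NTS, CVLM and RVLM (highest adjusted p = 2.3e-12, edgeR). Tap2, a chain of the peptide transporter for class I, was higher by 0.95 ± 0.13, 1.31 ± 0.20 and 1.47 ± 0.18 (highest adjusted p = 2.3e-06). Tap1, its partner chain, was lower, at −0.59 ± 0.10 in the NTS and −0.47 ± 0.12 in the CVLM (adjusted p = 3.6e-05 and 0.0043, edgeR), and stood at −0.06 in the RVLM (adjusted p = 0.83). Psmb9 and Brd2 passed in no region. Thus 3, 3 and 2 of these 5 genes passed, with medians of 0.16, 0.02 and 0.16. Of the other class II loci RT1-DOa, RT1-Db2 and RT1-Ha were listed, and none passed the filter. RT1-Db2, a further RT1-D beta chain, had 56 reads in all against 2011 for RT1-Db1.

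Endosomal genes that cut antigen and the invariant chain differed little. Of 8 tested, Ctss, the cathepsin that trims the invariant chain, was lower in SHRs in all 3 regions, at −0.22 ± 0.06, −0.38 ± 0.05 and −0.29 ± 0.06 (highest adjusted p = 0.0048, edgeR). Ctsl was lower in the CVLM and RVLM (−0.24 and −0.19, adjusted p = 5.2e-06 and 0.042), Ctsb was higher in the RVLM (0.12, adjusted p = 0.031), and Lgmn, Ifi30, Ctsd, March1 and March8 did not pass. The list medians were −0.05, −0.01 and −0.02. Among co-stimulatory genes 4 of 6 were tested. Cd86, a ligand of CD28, was lower in SHRs at −0.69 ± 0.19, −1.01 ± 0.18 and −0.58 ± 0.19 (highest adjusted p = 0.035, edgeR), and Cd274, which encodes the inhibitory ligand PD-L1, was higher at 0.44 ± 0.08, 0.41 ± 0.07 and 0.67 ± 0.08 (highest adjusted p = 0.00015), while Cd40 and Icam1 did not pass. The list medians were 0.07, −0.09 and 0.25.

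Cd4, the coreceptor that binds class II, was the only gene of the T cell side past the filter, and it was higher in SHRs. It ranged from 3.70 to 16.1 CPM in SHRs and from 0.345 to 1.80 in WKY rats in the NTS, so that the strains did not overlap. Its difference over ages was 2.67 ± 0.18, 2.44 ± 0.20 and 3.20 ± 0.21 in the NTS, CVLM and RVLM (highest adjusted p = 1.9e-13, edgeR). Rat macrophages and microglia can carry Cd4 as well as T cells, and Cd3e, Cd3d and Cd3g, which define T cells, had medians between 0 and 0.139 CPM in every strain and region.

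Markers of the cells that could carry class II are given here beside the strain differences, in which their part was not tested. Of 14 microglial markers 1 was higher and 1 lower in SHRs in the NTS and in the RVLM and 0 and 2 in the CVLM, and their summed medians were 558 and 555, 398 and 377, and 410 and 392 CPM for SHRs and WKY rats in the NTS, CVLM and RVLM. Of the border macrophage markers tested, 0 were higher and 1, 1 and 0 lower, with summed medians of 7.56 and 8.93, 7.83 and 7.96, and 8.88 and 8.42 CPM. None of the 2 dendritic cell markers tested passed. Monocyte and neutrophil markers did not pass the filter, at medians of 0.276 to 0.535 CPM. Red cell markers were lower in SHRs, with 2, 4 and 4 of 4 passing and summed medians of 336 and 498, 276 and 543, and 276 and 466.3 CPM, and their part in the class II differences was not tested.

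Choroid plexus markers were high in single libraries. The summed level of choroid plexus markers reached 4569 and 831 CPM in 2 WKY rats of 12 wk and 1999 in 1 WKY rat of 8 wk in the NTS, and the last of these had 5.3 CPM of Cd74 and 3.06 of RT1-Da. In the CVLM the highest library, of a WKY rat of 12 wk, held 190.2 CPM with 4.11 of Cd74, and in the RVLM the 3 highest held 8.72 to 18.5. Of the choroid markers tested, 3 of 4 were lower in SHRs in the NTS and 0 of 1 passed in the CVLM. Ependymal, leptomeningeal, endothelial, astrocytic and oligodendrocytic lists moved for at most 2 genes each, and no brainstem neuron marker passed. The neuron markers of the regions did not all run one way. Dbh, which marks noradrenergic and adrenergic cells, had medians of 65.7 and 82.6 CPM in the NTS, 80.8 and 83.7 in the CVLM and 9.97 and 7.36 in the RVLM, in SHRs and WKY rats. Pnmt, the enzyme that makes adrenaline and marks the adrenergic cells the RVLM is known for, had 2.75 and 6.21 CPM in the NTS, 39.0 and 43.2 in the CVLM and 19.6 and 12.7 in the RVLM. Of the forebrain genes that these punches should lack, Emx1 had medians of 0, but Neurod6 had 25.6 and 30.6 CPM in the CVLM against 4.22 and 3.78 in the NTS and 3.13 and 1.77 in the RVLM, and was lower in the NTS than in the CVLM by 2.82 on the log2 scale (adjusted p = 1.9e-41, edgeR).

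Outside the list, the 10 genes whose variation between rats of 1 strain and age was most like the mean of the members tested were Tmem176a, Tmem176b, RT1-A1, Ptgds, Ifitm2, Cyba, Lyz2, Tyrobp, Phgdh and C1qa. Their correlation with the members, averaged over the 3 regions with 46 rats each, ran from 0.61 for Tmem176a to 0.52 for C1qa among 13111 genes. The mean of the members took RT1-DMa and RT1-DMb as listed, without their copies. Tyrobp and C1qa are microglial markers of the list above, Lyz2 is a lysozyme of myeloid cells, Ptgds is a prostaglandin D synthase abundant in the leptomeninges, RT1-A1 is a class I gene, and Phgdh is an enzyme of serine synthesis found in astrocytes. For Cd74 alone, the median correlation of a list's genes was 0.32 for 6 leptomeningeal markers, 0.31 for the 1 ependymal, 0.22 for 14 microglial, 0.22 for 3 astrocytic and 0.10 for 3 border macrophage markers. Genes within a list were spread widely. Among all genes the astrocyte markers Gfap, Aldh1l1 and Aqp4 ranked 13, 460 and 5088, and the microglial markers ran from 11 (C1qa) to 5102 (Gpr34). Among the members the RT1-DMa and RT1-DMb pairs correlated at 0.53, 0.55 and 0.32 in the NTS, CVLM and RVLM, and RT1-Da with RT1-Db1 at 0.53, 0.21 and 0.29. RT1-Db1 had a median of 2 reads in WKY libraries of the CVLM and 2.5 in the RVLM. Counts this low limit a correlation, so these values cannot tell how far the chains of 1 molecule varied together.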

How the data were processed

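Per the labels and the study's methods, bilateral 1 mm punches were sequenced as total RNA, and reads of both strains were aligned to the same rat reference (rn6) with STAR and counted with RSEM. The authors deposited expected counts per gene, 1 table a region. About 5% of values were not whole (5.02%, 4.95% and 4.88% in the NTS, CVLM and RVLM). ComBat_seq is named in the methods, and whether these tables had been through it was not given in the sources used here. A strain difference in alignment to the one reference cannot be told apart from a difference in RNA. Depth ran from 5904581 to 17889417, and columns not used numbered 0.

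Counts were rounded, genes with a maximum regularized log value (DESeq2 1.42.0) under 3.5 in a region were left out, as in the study's methods, and edgeR 4.0.16 (R 4.3.3) fitted strain and age in each region with TMM factors, quasi-likelihood tests and Benjamini-Hochberg adjustment. Regions were compared in 1 fit with the rat as a block, and with limma 3.58.1 (voom) as an alternative. Intervals are exact at 95%. Correlations used log2 CPM with a prior count of 2, after removing group means. The fits were tested on simulated data. The alternatives were another size factor, DESeq2, no filter, a stricter call, each age alone, the replicate number as a block, the library number, and leaving out each rat. Where a rat was left out of the fits without a filter, the negative binomial dispersion was kept from all libraries. The sums of copies, the number term without a filter, the filter in at least 1 region and the looser X core were added after seeing the data.

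The members and lists were chosen with earlier results of these data known. All 9 members are named, pathway genes where they passed over ages in a region, and the 10 genes most like the members.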

Additional observations from a re-analysis of the deposited data

Results flagged for a closer look

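Within groups of 4 to 6 rats, 10 of 112 groups of a member, region, strain and age held a rat far from the others. The measure was the gap to the next rat as a share of the range. How many groups chance alone would flag was not worked out for these values, and the groups share rats. In the NTS, Cd74 was 22.0 CPM in the first WKY rat of 8 wk (next 6.99) and 32.1 in the second SHR of 24 wk (next 13.8), the rat that also had RT1-Da at 7.84 (next 3.14), and the fourth SHR of 16 wk had RT1-Da at 3.97 (next 1.93). In the CVLM, RT1-Db1 was 0 in the fourth SHR of 10 wk (next 1.20) and 4.32 in the fourth SHR of 24 wk (next 2.08), and RT1-DOb was 1.01 in the fifth SHR of 10 wk (next 2.43). In the RVLM, RT1-Da was 2.43 in the sixth SHR of 12 wk (next 1.17) and 2.55 in the third SHR of 16 wk (next 1.15), and RT1-Db1 was 4.53 in the fourth SHR of 10 wk (next 2.11).

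The strain difference also varied between regions by a test of that difference. For RT1-Db1 the NTS stood at −1.71 against the RVLM. For RT1-DOb the NTS stood at −4.92 against the CVLM, and the CVLM at 5.01 against the RVLM. For the RT1-DMa pair the NTS stood at −0.37 and the CVLM at −0.40 against the RVLM.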

How the results depend on the processing

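Counts of member calls summed over the 5 ages were 4, 8 and 5 in the NTS, CVLM and RVLM. They became 7, 14 and 9 with no filter, where all 9 members are tested, and 11, 16 and 10 with the copies summed. The share of all genes that passed by age in these 2 settings is not given here. The rises are therefore not a result about the members. Each age fitted alone gave 1 in the NTS and 3 in the RVLM, and the stricter call gave 3 in the RVLM. Over ages the counts in the NTS and RVLM, 1 each, became 3 each with no filter or with the copies summed, and 2 in the NTS with the library number as a term. For age in WKY rats, 3 became 1 with that term and 0 without the number 2 libraries outside 10 wk. With the copies summed the RT1-DMa pair of the CVLM passed for age in WKY rats as well. Between regions NTS against CVLM fell from 2 to 1 under the stricter call, NTS against RVLM rose from 2 to 4 with the copies summed, and CVLM against RVLM rose from 0 to 1 with no filter or the filter in at least 1 region and to 2 with the copies summed. For strain by region, NTS against CVLM and CVLM against RVLM rose from 0 to 1 in the same 2 filter settings, the latter also with the copies summed, and NTS against RVLM rose from 1 to 2 with the copies summed. Dropping the filter adds genes to the test, and summing puts a pair in place of RT1-DMa and RT1-DMb. The cause of the other changes was not tested. With the replicate number as a block the calls by age were 1 in the NTS and 3 in the RVLM, RT1-Db1 at 12 and 16 wk in the RVLM had an adjusted p of 0.23 each (edgeR), and RT1-Da over ages in the NTS turned to 0.078. With the copies summed and the block, the RT1-DMa pair passed at 4, 5 and 0 ages in the NTS, CVLM and RVLM and the RT1-DMb pair at 2 in each, and both passed over ages. Same-numbered rats of both strains correlated above 0.1 in 12, 13 and 7 of 18 pairs (medians 0.22, 0.18 and 0.066). Rats of unlike number were not compared, so these values cannot tell whether the numbers pair the rats. Age within a strain could not be run with the block. RT1-Da in the RVLM turned to −0.072 without the number 2 libraries.

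Leaving out each rat in turn gave 3 to 5, 7 to 9 and 3 to 5 calls by age, 1 to 2, 2 to 3 and 1 to 1 over ages, and 0 to 3 for age in WKY rats. The lower RVLM count came without the fifth or the sixth SHR of 16 wk. The sign turned within the range of RT1-Da in the NTS (−0.12 to 0.091), Cd74 in the NTS (−0.16 to 0.039, without the first WKY rat of 8 wk) and in the CVLM (−0.15 to 0.11, without the first WKY rat of 24 wk), and RT1-DMb alone in the CVLM (−0.71 to 1.27, without the first WKY rat of 12 wk) and in the RVLM (−0.54 to 1.21, without the second WKY rat of 12 wk). Of 102 single-gene values under the planned settings 96 kept their direction and their side of the threshold, as did 29 of 35 under those added. RT1-Ba, RT1-Bb, RT1-DOb and Ciita rest on few reads, and their folds carry that counting error.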
